A study of Mus musculus with 16 samples.

Results

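The nuclear-encoded subunits of the mitochondrial respiratory chain and of ATP synthase were described across 8 groups of sorted mouse dendritic cells. A gene was a member if its symbol matched Ndufa, Ndufb, Ndufc, Ndufs or Ndufv with a number, Sdha, Sdhb, Sdhc or Sdhd, or began with Uqcr, Cox4 to Cox8 or Atp5, and the probe set with the highest mean stood for it. The rule found 81 of the 19938 genes tested: 35 in complex I, 4 in complex II, 8 in complex III, 17 in complex IV and 17 in ATP synthase. The complex I names include Ndufa4 and Ndufa4l2, which later work by others assigned to complex IV. Some protein-coding genes with such names in RefSeq were not analysed here, among them Cox7c, Ndufb4 and Ndufb4b, whose probe sets carried several symbols. None of the 13 subunits encoded in mitochondrial DNA was tested.

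RNA came from CD24+ and CD172a+ dendritic cells, the markers used to sort the classical subsets that cross-present antigen and that prime CD4 T cells. Culture cells were grown from whole bone marrow for 9 days in 5% Flt3l, the cytokine that drives dendritic cell development, and were then activated with gamma interferon and, for 4 hours, LPS. The gamma interferon step lasted 16 hours by one label and 22 hours by another. Spleen cells were sorted without culture or activation. In both sources Ciita -/- mice (KO), which lack the transactivator of MHC class II genes, stood beside Ciita +/+ mice (WT). All mice, the WT animals included, were of strain B6 and carried 1 GFP allele of Zbtb46, a classical dendritic cell factor, and no label gave an age. Each of the 8 groups (source by subset by genotype) had 2 arrays, and each of the 8 mice gave 1 CD24+ and 1 CD172a+ array, with 4 mice per source. Culture, activation and organ changed together, so their parts in any culture against spleen difference cannot be told apart, and in sorted bulk cells fewer cells of a type and less RNA per cell cannot be told apart either.

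Complexes I and II take electrons from NADH and succinate, complex III passes them through cytochrome c to complex IV, which reduces oxygen, and complexes I, III and IV pump protons that ATP synthase uses to make ATP. Resting dendritic cells are known to rely on this system, and activation by Toll-like receptor ligands is known to move them towards glycolysis. Transcription of the nuclear-encoded subunits is classically attributed to the factors NRF1, GABPA (an ETS protein) and YY1.

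The promoters of 6 members whose values follow are shown because they span the results: Cox5a was higher in culture, Ndufs3, Ndufs7 and Ndufb11 were lower, and Sdhd and Ndufa5 changed differently in the subsets. The RefSeq windows (GRCm38.p6) covered 250 bases before to 50 after each start, and 66 members matched, with 71 windows. The stretches below end at the last base before the start, except that of Ndufs7, a short site after it. They lie at chr9:57521112-57521231 (Cox5a, plus strand), chr2:90904722-90904841 (Ndufs3, minus), chr9:50603850-50603969 (Sdhd, minus), chr6:24527691-24527810 (Ndufa5, minus), chrX:20617620-20617739 (Ndufb11, minus) and chr10:80249463-80249492 (Ndufs7, plus). Capitals mark GCGCA, any base and GCGC (NRF1-type), CCGGAAG (ETS-type) or AAGATGGCG (YY1-type), searched on both strands.
Cox5a: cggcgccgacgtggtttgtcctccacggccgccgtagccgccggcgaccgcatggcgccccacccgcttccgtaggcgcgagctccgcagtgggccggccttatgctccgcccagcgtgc
Ndufs3: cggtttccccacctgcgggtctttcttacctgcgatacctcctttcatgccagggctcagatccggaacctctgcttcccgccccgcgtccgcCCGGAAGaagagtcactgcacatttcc
Sdhd: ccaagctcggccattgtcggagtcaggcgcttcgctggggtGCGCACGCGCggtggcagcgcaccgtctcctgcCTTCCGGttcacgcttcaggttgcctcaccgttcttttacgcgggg
Ndufa5: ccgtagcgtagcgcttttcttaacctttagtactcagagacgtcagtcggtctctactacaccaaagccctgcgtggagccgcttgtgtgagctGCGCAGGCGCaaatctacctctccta
Ndufb11: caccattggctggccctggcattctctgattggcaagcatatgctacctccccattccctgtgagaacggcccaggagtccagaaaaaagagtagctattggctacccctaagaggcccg
Ndufs7: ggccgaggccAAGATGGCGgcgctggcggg

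The ETS-type letters began 27 bases before the start in Ndufs3, with another site at base 2 counted from the start as base 1, and 46 before the start in Sdhd, where the NRF1-type letters began 79 before it. In Ndufa5 the NRF1-type letters began 26 bases before the start. The same letters were also found at 190 bases. Sites were pooled over all windows of a gene, so these may be the same bases counted from another start. The YY1-type letters of Ndufs7 began at base 25 by the same count. The windows of Cox5a and Ndufb11 held none of the motifs. Of the members' windows 23.9% held the NRF1-type letters, against 4.6% of all 32851 windows, and 23.9% held the ETS-type letters, against 8.86%. The YY1-type letters were in 9.9% of the members' windows against 1.4% of all, no site of one motif overlapped a site of another, and 32 of the 66 matched members held no motif. Base composition was not matched between these windows. Of the 16 genes with NRF1-type letters, 2 were called higher and 5 lower in culture CD24+ cells (4 and 8 in CD172a+ cells), and of the 17 with ETS-type letters 4 were higher and 3 lower (6 and 4), where 47.1% of all genes were higher and 29.5% lower in CD24+ cells (49.4% and 29.5% in CD172a+ cells). With quantile normalization 0 and 13 of the 16 and 0 and 15 of the 17 were higher and lower in CD24+ cells. In CD172a+ cells these counts were 2 and 11, and 2 and 13. The shares of all genes in each direction were not counted under that scaling.

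Levels below are log2 signals minus the median of the tested genes on the same array, so that 0 is the array's median gene and a difference of 1 is 2-fold. Levels are compared only within a gene. A difference was called when its adjusted p in limma, over all tested genes, was under 0.05. The Ciita probe set read 0.20 to 2.81 in KO and 3.24 to 3.92 in WT culture arrays, but 3.51 to 3.91 in KO and 3.58 to 4.03 in WT spleen arrays, so it separated the genotypes in culture only, and the sources used here do not say whether it lies in the deleted part. H2-Ab1, a class II gene that Ciita switches on, read 2.41 to 4.79 in KO arrays and 6.60 to 6.91 in WT arrays. Sirpa, which encodes CD172a, read 1.04 to 2.23 in CD24+ arrays and 4.16 to 5.33 in CD172a+ arrays. The 2.23 was that of culture CD24+ KO replicate 2, and the other CD24+ arrays read 1.04 to 1.54. Cd24a did not separate the culture subsets (6.06 to 6.23 in CD24+ and 6.01 to 6.12 in CD172a+ arrays). The mean level of 8 cDC2 markers was 0.26 to 0.64 in culture CD172a+ arrays and 3.33 to 3.47 in spleen CD172a+ arrays, and that of 9 cDC1 markers was 3.59 to 3.99 in culture CD24+ arrays and 4.65 to 4.91 in spleen CD24+ arrays. The mean of 5 pan-cDC markers was 1.47 to 1.83 in culture CD172a+ arrays against 3.69 to 3.89 in spleen CD172a+ arrays, and that of 7 monocyte and macrophage markers -0.24 to 0.09 against 1.31 to 1.75. The means of the B and plasma cell and of the T and NK cell markers were also lower in culture arrays than in spleen arrays of both subsets. The mean of 5 plasmacytoid dendritic cell markers, which include the member Cox6a2, was higher. In CD24+ arrays it was 1.98 to 2.06 in culture against 1.67 to 1.97 in spleen. In CD172a+ arrays it was 2.09 to 2.14 against 1.19 to 1.29, although Ccr9 among them changed by -1.82 in CD24+ and -0.215 in CD172a+ cells. The part of these markers in the culture against spleen results was not tested. Neutrophil markers averaged -0.91 to 1.29 in spleen CD24+ arrays and -1.14 to -0.63 in the others, and the part of such cells in the results was not tested.

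In culture against spleen, 20 members were called higher and 24 lower in CD24+ cells, where 47.1% of all genes were higher and 29.5% lower. In CD172a+ cells 20 members were higher and 29 lower, where 49.4% of all genes were higher and 29.5% lower. Calls were thus common among all genes, and 20 of 81 members is a smaller share than that of all genes called higher. The median change of the members was 0.02 in CD24+ cells and -0.04 in CD172a+ cells, beside 0.125 and 0.148 for all genes. The deposited culture arrays had lower medians than the spleen arrays (6.89 to 6.97 against 7.37 to 7.39), and the counts by direction depended on the scaling. With quantile normalization over the 16 arrays 6 members were higher and 63 lower in CD24+ cells (9 and 56 in CD172a+ cells). In the values as deposited 3 were higher and 70 lower (5 and 68 in CD172a+ cells). The median of all genes was then 0.047 and 0.074 with quantile normalization and -0.336 and -0.277 as deposited. Relative to it the members' median stood at -0.466 and -0.435 with quantile normalization and at -0.109 and -0.191 as deposited. The shares of all genes called in each direction were not counted under these scalings, so these counts have no background beside them.

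Complex IV had the highest median of the 5 complexes in both subsets under each of the 3 scalings, and the lowest was that of complex III in CD24+ cells and of complex I in CD172a+ cells. Centred and deposited changes differ by 1 constant per comparison, so they must rank the complexes alike. Only quantile normalization could change the order. After median centring the complex IV genes changed by a median of 0.24 in CD24+ and 0.15 in CD172a+ cells. For all genes the medians were 0.125 and 0.148. Of the 17 complex IV genes 11 and 9 were called higher and 2 lower in each. Beside these counts, and those by complex or part below, stand 47.1% and 49.4% of all genes called higher and 29.5% lower in each subset. Quantile normalization turned the complex IV medians to -0.16 and -0.10. Complex I genes changed by -0.13 and -0.29, with 14 and 19 of 35 called lower and 2 higher in each, and by -0.46 and -0.48 with quantile normalization. Complex III lay at -0.25 and -0.02, with 5 and 3 of 8 lower and 1 higher in each. Complex II lay at -0.09 and -0.11 and ATP synthase at 0.08 and -0.11, a CD24+ value that was -0.32 with quantile normalization and -0.38 as deposited. Relative to the median of all genes, complex I stood at -0.25 and -0.44 with centring and -0.51 and -0.56 with quantile normalization. By the same measure complex IV stood at 0.115 and 0.005 with centring and -0.205 and -0.178 with quantile normalization.

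**Figure D1:**
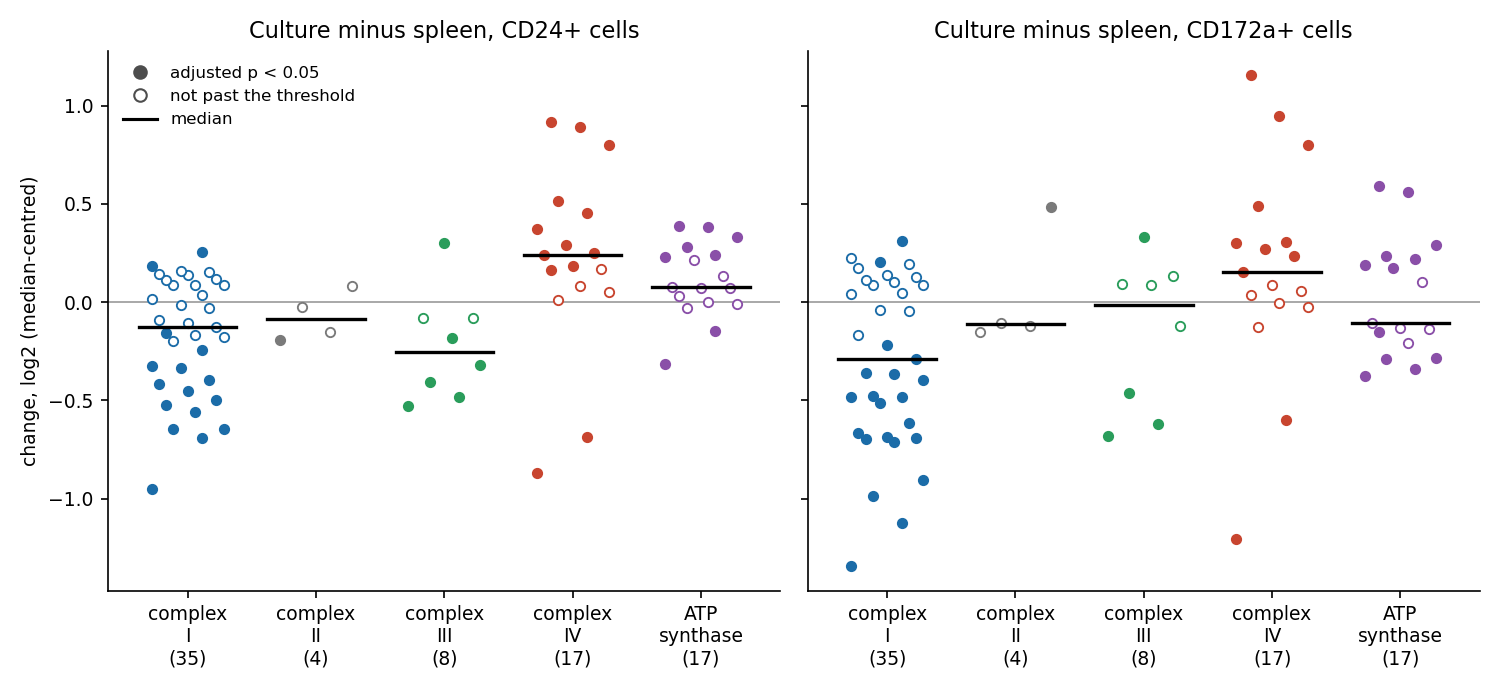
Each circle is 1 subunit gene, placed by its log2 change between culture and spleen after median centring (vertical axis) and by complex (horizontal axis), in CD24+ and CD172a+ cells, filled where called, with bars at the medians. Complex I has medians of -0.13 and -0.29 and complex IV of 0.24 and 0.15, beside 0.125 and 0.148 for all genes. The complex IV medians turn to -0.16 and -0.10 with quantile normalization.

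**Figure D2:**
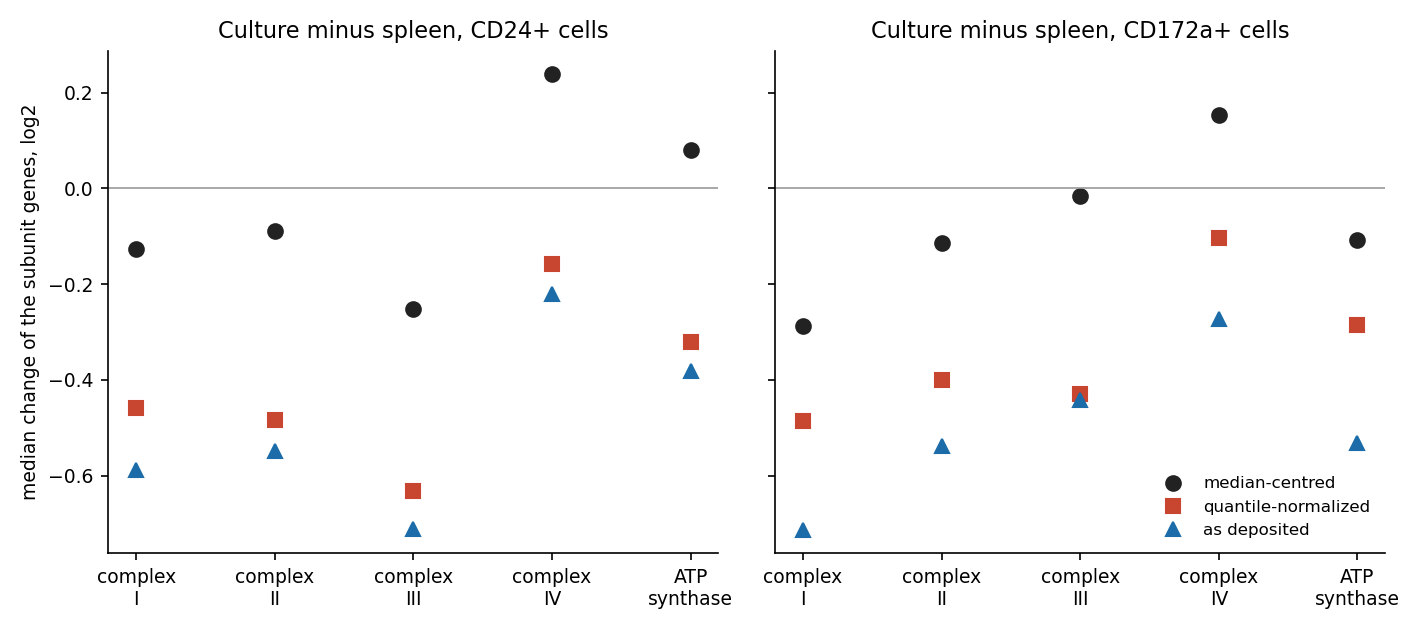
Median log2 change of the subunit genes of each complex between culture and spleen (vertical axis) under the 3 scalings, in CD24+ and CD172a+ cells. Complex IV keeps the highest median in each, at 0.24, -0.16 and -0.22 in CD24+ cells with centring, with quantile normalization and as deposited. Centring and the values as deposited give the same order by arithmetic.

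The lower calls of complex I included the Q module, the part of the matrix arm where ubiquinone is reduced, of which all 3 tested core genes fell in both subsets. Ndufs7, which carries the last iron-sulfur cluster before ubiquinone, read 2.01, 1.96, 1.82 and 1.95 in culture CD24+ arrays (KO, KO, WT and WT, as in each such list), against 2.94, 2.85, 2.95 and 2.80 in spleen CD24+ arrays. It read 2.14, 2.25, 2.29 and 2.06 in culture CD172a+ arrays against 2.72, 2.82, 2.77 and 2.90 in spleen CD172a+ arrays. Every culture array lay below every spleen array of the same subset. The gene fell by 0.95 ± 0.07 and 0.62 ± 0.07 (change ± SE, 4 arrays each, adjusted p = 8.4e-08 and 3.4e-06).

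Ndufs8, an iron-sulfur subunit of the same module, read 3.02, 2.36, 2.82 and 3.03 in culture CD24+ arrays against 3.37, 3.35, 3.51 and 3.25 in spleen CD24+ arrays. In CD172a+ cells it read 1.89, 1.95, 2.03 and 2.06 in culture against 2.87, 3.01, 2.93 and 3.06 in spleen. The groups did not overlap in either subset, and it fell by 0.56 ± 0.12 and 0.98 ± 0.12 (adjusted p = 9.0e-04 and 8.4e-06). Ndufs3, another of these core genes, whose promoter is among those shown, fell by 0.52 ± 0.10 and 0.69 ± 0.10 (adjusted p = 5.9e-04 and 6.2e-05), and its second probe set gave -0.69 and -0.85. Of the 2 accessory genes of the Q module, Ndufa5 and Ndufa9, both fell in CD172a+ cells and neither was called in CD24+ cells.

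The N module, which oxidizes NADH, had smaller changes. Its core genes Ndufs1 and Ndufv1 changed by -0.34 ± 0.10 and -0.17 ± 0.08 in CD24+ cells (adjusted p = 0.0071 and 0.064) and fell by 0.48 ± 0.10 and 0.36 ± 0.08 in CD172a+ cells. Ndufv2, its other core gene, changed by 0.09 ± 0.06 in CD24+ cells and was higher by 0.31 ± 0.06 in CD172a+ cells, a sign that turned with quantile normalization (-0.04) and as deposited (-0.11). Of its 5 accessory genes 1 was called lower in CD24+ cells and 0 in CD172a+ cells. Ndufa6, a subunit with an LYR motif counted between the N and Q modules, fell by 0.65 ± 0.07 and 0.69 ± 0.07.

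In the membrane arm, which pumps protons, 8 of 18 accessory genes were lower and 1 higher in CD24+ cells, and 10 lower and 1 higher in CD172a+ cells. Ndufb11, an X-linked accessory subunit, had 2 probe sets, and which of them lies at the X-linked gene was not determined here. The set with the higher mean read 4.70, 4.05, 4.49 and 4.62 in culture CD24+ arrays against 4.92, 4.96, 5.02 and 4.95 in spleen CD24+ arrays. In CD172a+ cells it read 3.37, 3.15, 3.50 and 3.59 in culture against 4.67, 4.75, 4.75 and 4.81 in spleen. Culture arrays lay below spleen arrays in both subsets, by 0.50 ± 0.11 and 1.34 ± 0.11 (adjusted p = 0.0014 and 3.1e-07), but the second probe set gave -0.10 and -0.55, so the size of the change differed between probe sets. Ndufb5 fell by 0.69 ± 0.13 and 1.12 ± 0.13, Ndufb3 by 0.64 ± 0.09 and 0.91 ± 0.09 and Ndufb10 by 0.40 ± 0.12 and 0.69 ± 0.12, where the CD24+ call was lost without spleen CD24+ WT replicate 1 (adjusted p = 0.0501). All of these are accessory subunits without a redox centre.

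**Figure D3:**
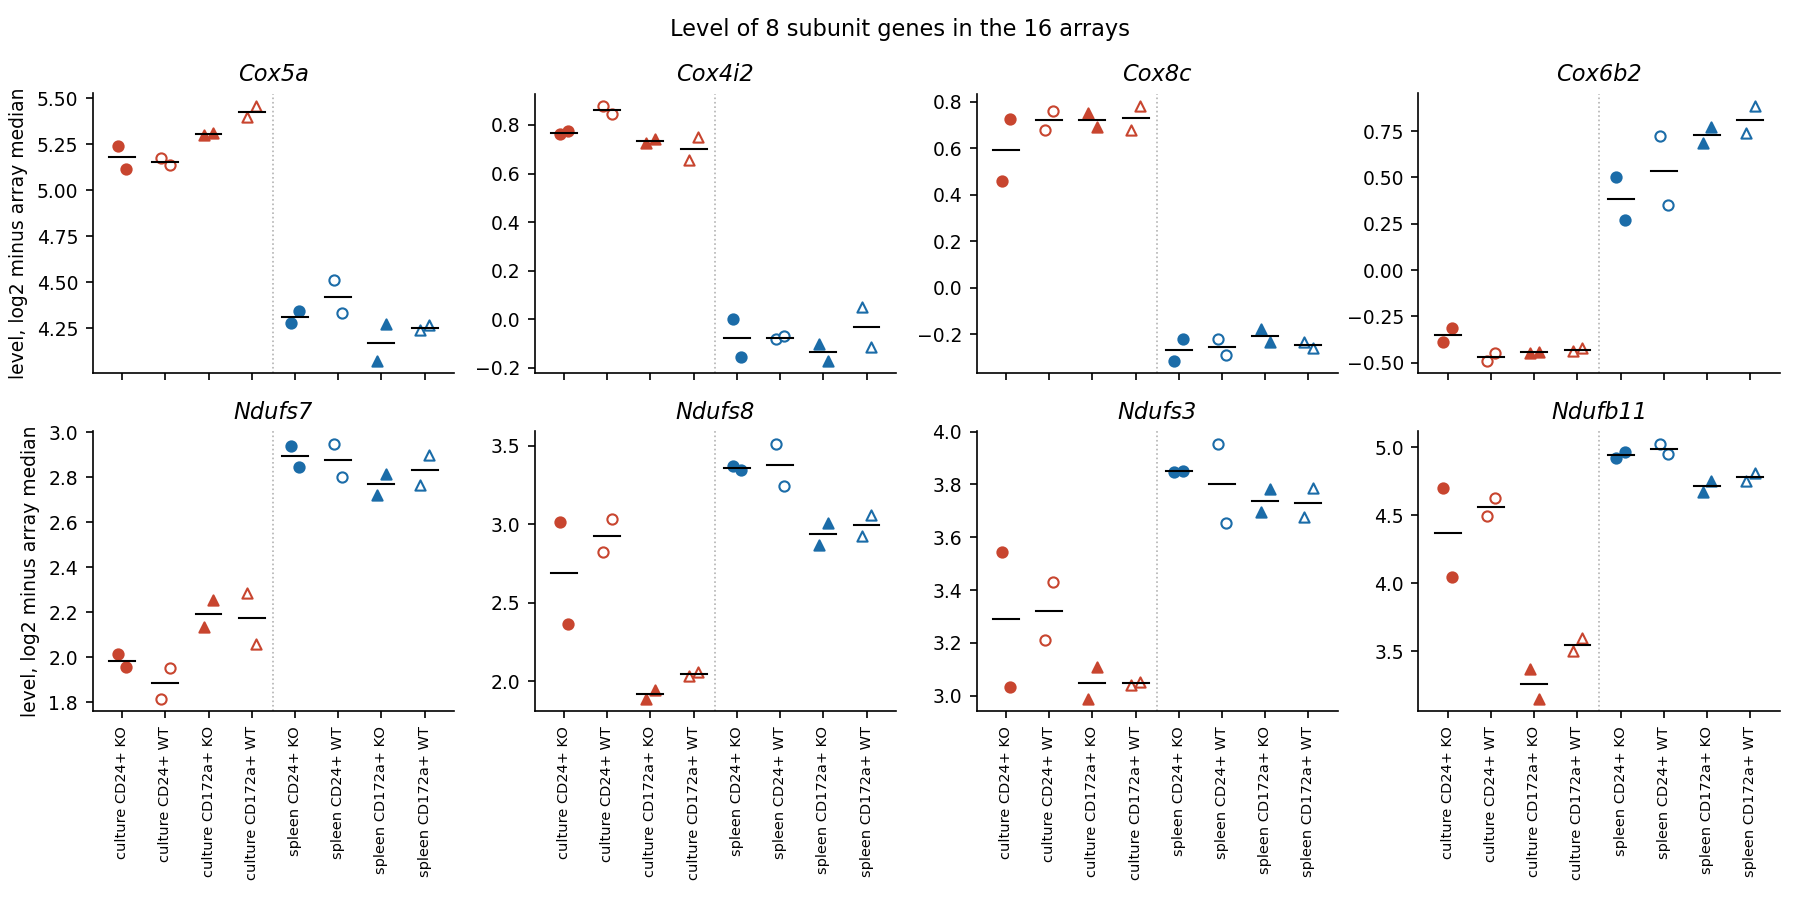
Levels of single members in the 16 arrays (vertical axes, log2 minus the array's median gene, scaled per gene), with 2 arrays per group as points and their mean as a bar; red is culture and blue spleen, circles are CD24+ and triangles CD172a+, filled KO and open WT. Among them Cox5a lies at 5.12 to 5.24 in culture CD24+ arrays and 4.28 to 4.51 in spleen CD24+ arrays, and Ndufs7 at 1.82 to 2.01 and 2.80 to 2.95.

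Complex II oxidizes succinate and also belongs to the citric acid cycle. Sdha, its flavoprotein, changed by -0.02 ± 0.07 and -0.12 ± 0.07 and Sdhb, its iron-sulfur subunit, by -0.15 ± 0.08 and -0.15 ± 0.08, none of them called. Of the membrane anchors Sdhc fell by 0.19 ± 0.06 in CD24+ cells and changed by -0.10 ± 0.06 in CD172a+ cells (adjusted p = 0.12). Sdhd read 2.31, 2.10, 2.14 and 2.15 in culture CD172a+ arrays against 1.57, 1.71, 1.74 and 1.72 in spleen CD172a+ arrays, and 2.44, 2.10, 1.84 and 2.08 in culture CD24+ arrays against 2.08, 2.09, 2.15 and 1.80 in spleen CD24+ arrays. The groups were apart in CD172a+ cells, where it rose by 0.49 ± 0.10 (adjusted p = 5.0e-04; 0.64 with quantile normalization and 0.06 as deposited), and the CD24+ change was 0.08 ± 0.10, which was -0.38 as deposited.

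In complex III, which moves electrons from ubiquinol to cytochrome c, the core protein Uqcrc1 fell by 0.41 ± 0.10 and 0.46 ± 0.10. The other core protein, Uqcrc2, fell by 0.32 ± 0.06 in CD24+ cells and changed by 0.09 ± 0.06 in CD172a+ cells (adjusted p = 0.16). The small subunit Uqcr10 fell by 0.53 ± 0.10 and 0.68 ± 0.10. Uqcrh, the hinge protein beside cytochrome c1, was higher by 0.30 ± 0.05 and 0.33 ± 0.05, and its sign turned with quantile normalization (-0.16 and -0.03) and as deposited (-0.16 and -0.09).

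Complex IV held Cox5a, Cox4i2 and Cox8c, the 3 members called higher in both subsets under all 3 scalings. Cox5a, a subunit on the matrix side of the oxidase, read 5.24, 5.12, 5.17 and 5.14 in culture CD24+ arrays against 4.28, 4.34, 4.51 and 4.33 in spleen CD24+ arrays. In CD172a+ cells it read 5.30, 5.31, 5.40 and 5.46 in culture against 4.07, 4.27, 4.24 and 4.27 in spleen. The groups lay apart in both subsets, and it rose by 0.80 ± 0.06 and 1.16 ± 0.06 (adjusted p = 1.3e-07 and 3.8e-09). Cox5b, another matrix-side subunit, was higher by 0.46 ± 0.06 in CD24+ cells, a sign that turned with quantile normalization (-0.05) and as deposited, and by 0.49 ± 0.06 in CD172a+ cells, a call lost with quantile normalization (0.03, adjusted p = 0.59) and as deposited (0.06, adjusted p = 0.34).

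Complex IV is the complex with the most tissue-restricted isoforms, 7 of its 17 members here, of which 5 were higher and 1 lower in CD24+ cells and 4 and 1 in CD172a+ cells. Cox4i2, an isoform of subunit 4 known from lung, read 0.76, 0.77, 0.88 and 0.85 in culture CD24+ arrays against 0.001, -0.16, -0.08 and -0.07 in spleen CD24+ arrays. It rose by 0.89 ± 0.05 and by 0.80 ± 0.05 in CD172a+ cells (adjusted p = 2.1e-08 and 4.5e-08). Cox8c, an isoform of subunit 8 known from testis, rose by 0.92 ± 0.06 and 0.95 ± 0.06, with culture arrays at 0.46 to 0.78 and spleen arrays at -0.31 to -0.18. Both genes lay within about 1 log2 unit of the array's median gene. The ubiquitous Cox4i1 was higher by 0.25 ± 0.05 and 0.15 ± 0.05, with signs that turned with quantile normalization (-0.26 and -0.26) and as deposited, and Cox8a changed by 0.01 ± 0.07 and -0.01 ± 0.07.

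Cox6b2, the testis isoform of subunit 6b, fell. It read -0.39, -0.31, -0.49 and -0.45 in culture CD24+ arrays against 0.50, 0.27, 0.72 and 0.35 in spleen CD24+ arrays. In CD172a+ cells it read -0.45, -0.44, -0.44 and -0.42 in culture against 0.68, 0.77, 0.74 and 0.88 in spleen. The groups did not overlap, and it fell by 0.87 ± 0.08 and 1.21 ± 0.08 (adjusted p = 8.9e-07 and 4.1e-08). Its ubiquitous partner Cox6b1 was higher by 0.29 ± 0.06 and 0.31 ± 0.06, with signs that turned with quantile normalization (-0.22 and -0.10) and as deposited. Cox7a2l, which ties complex III to complex IV and of which C57BL/6 mice are known to carry a shortened form, fell by 0.69 ± 0.09 and 0.60 ± 0.09, and its second probe set gave -0.90 and -0.78.

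The related Cox7a2 was higher by 0.37 ± 0.05 and 0.30 ± 0.05, with signs that turned with quantile normalization (-0.16 and -0.16) and as deposited. Cox7a1, the heart and muscle form, read 1.55, 0.76, 0.83 and 1.18 in culture CD24+ arrays against 0.53, 0.41, 0.82 and 0.50 in spleen CD24+ arrays, groups that overlapped. It was higher there by 0.52 ± 0.16, a call lost without culture CD24+ WT replicate 2 (adjusted p = 0.0507), and changed by -0.13 ± 0.16 in CD172a+ cells. Cox6a1 changed by 0.16 ± 0.06 and 0.06 ± 0.06, and with quantile normalization by -0.24 and -0.30. Its muscle form Cox6a2, which plasmacytoid dendritic cells are also known to express, was higher by 0.18 ± 0.05 and 0.27 ± 0.05, with signs that turned as deposited (-0.28 and -0.16). Cox7b changed by 0.05 ± 0.07 and -0.02 ± 0.07 and Cox8b by 0.17 ± 0.07 and 0.09 ± 0.07, without calls. Cox7b2 was higher by 0.24 ± 0.05 and 0.24 ± 0.05, signs that turned as deposited (-0.22 and -0.19), and lay at -2.43 to -2.30 in culture and -2.66 to -2.53 in spleen arrays.

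Ndufa4, a subunit of complex IV despite its name, changed by 0.02 ± 0.08 in CD24+ cells and fell by 0.37 ± 0.08 in CD172a+ cells (adjusted p = 0.0015). Its relative AA467197, not a member by symbol, is known to take its place in inflamed cells. It read 3.21, 2.57, 2.78 and 3.29 in culture CD24+ arrays against -0.99, -1.01, -1.14 and -1.16 in spleen CD24+ arrays. In CD172a+ cells it read 3.23, 3.05, 3.75 and 3.56 in culture against -0.81, -0.61, -0.75 and -0.54 in spleen. The culture arrays lay far above the spleen arrays, with rises of 4.04 ± 0.14 and 4.07 ± 0.14 (3.93 and 3.95 with quantile normalization). Ndufa4l2, a hypoxia-responsive relative, changed by 0.14 ± 0.06 and 0.14 ± 0.06 without a call.

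In ATP synthase 6 of 17 members were higher and 2 lower in CD24+ cells, and 7 higher and 5 lower in CD172a+ cells. Atp5a1 and Atp5b encode the alpha and beta subunits of the catalytic head. Atp5b read 5.75, 5.80, 5.77 and 5.73 in culture CD172a+ arrays against 5.20, 5.14, 5.17 and 5.16 in spleen CD172a+ arrays. The groups did not overlap, and Atp5b rose by 0.59 ± 0.04 and Atp5a1 by 0.56 ± 0.05 in CD172a+ cells (0.17 and 0.13 as deposited, 0.14 and 0.11 with quantile normalization, calls that held under all 3 scalings). In CD24+ cells they were higher by 0.38 ± 0.04 and 0.39 ± 0.05, signs that turned with quantile normalization (-0.12 each) and as deposited (-0.08 and -0.07). Atp5c1, the central stalk, fell by 0.15 ± 0.06 and 0.15 ± 0.06.

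The 3 genes that encode the same mature c-ring protein did not share a direction after median centring. Atp5g2 fell by 0.31 ± 0.07 and 0.28 ± 0.07. Atp5g1 changed by 0.22 ± 0.12 and -0.13 ± 0.12 without a call, and its second probe set gave 0.32 and 0.02. Atp5g3 was higher by 0.24 ± 0.08 and 0.22 ± 0.08, with signs that turned with quantile normalization (-0.18 and -0.03) and as deposited. In CD24+ cells all 3 genes lay below 0 with quantile normalization and as deposited. Atp5pb, in the peripheral stalk, was higher by 0.33 ± 0.09 in CD24+ cells, a sign that turned with quantile normalization (-0.16) and as deposited, and changed by -0.14 ± 0.09 in CD172a+ cells. Atpif1, the inhibitor of ATP hydrolysis and no member by symbol, changed by -0.08 ± 0.06 in CD24+ cells and was higher by 0.41 ± 0.06 in CD172a+ cells, where quantile normalization gave -0.04.

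Across the subsets 15 members were called higher in both and 20 lower in both, and 0 in opposite directions, where 41.3%, 23.4% and 2.74% of all genes were so called. The 2 comparisons share no array but share mice. Of these members 3 of the higher and 19 of the lower were so called under all 3 scalings, a share not counted for all genes. The values as deposited lie below the centred ones by the same amount for every gene of a comparison, which favours lower calls. Every culture array lay above every spleen array for 14 members and below for 19 in CD24+ cells, where this held for 43.2% and 26.6% of all genes. In CD172a+ cells the counts were 21 and 27, beside 46.2% and 27.6% of all genes.

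Some genes that build the complexes had larger changes than any subunit. Counts for these and the other culture against spleen gene lists below are given after median centring. Beside them, 47.1% of all genes were higher and 29.5% lower in CD24+ cells, and 49.4% and 29.5% in CD172a+ cells. Of 15 complex I assembly factors 3 were higher and 10 lower in CD24+ cells and 3 and 9 in CD172a+ cells, and Ndufaf6 fell by 2.46 ± 0.10 and 1.12 ± 0.10, Ndufaf4 by 2.31 ± 0.11 and 1.83 ± 0.11 and Ndufaf7, a methyltransferase, by 1.65 ± 0.09 and 1.97 ± 0.09. Of 4 complex II factors 1 was higher in each subset and 2 and 3 lower. Sdhaf4, which binds flavinylated Sdha, fell by 3.32 ± 0.10 and 3.11 ± 0.10, and Sdhaf2, which helps attach the flavin, rose by 0.74 ± 0.08 and 0.91 ± 0.08. Of 6 complex III factors 6 were lower in CD24+ cells and 4 in CD172a+ cells, with 0 higher. Among them Bcs1l, which inserts the Rieske protein, fell by 1.68 ± 0.07 and 1.18 ± 0.07 and Uqcc3 by 1.76 ± 0.08 and 0.79 ± 0.08.

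Of 18 complex IV assembly factors 4 were higher and 7 lower in CD24+ cells, and 8 and 5 in CD172a+ cells. Cmc2 rose by 2.34 ± 0.11 and 3.65 ± 0.11 and Sco1, a copper chaperone, by 2.23 ± 0.09 and 2.49 ± 0.09, while Coa6, also part of copper delivery, fell by 1.40 ± 0.07 and 1.14 ± 0.07. Of 5 ATP synthase factors 1 was higher and 4 lower in CD24+ cells, and 2 and 3 in CD172a+ cells, and Tmem70, which helps form the c-ring, rose by 0.91 ± 0.14 and 1.88 ± 0.14. Of 3 cytochrome c genes 2 were higher and 1 lower in each subset. Cycs, the somatic cytochrome c, was higher by 0.41 ± 0.07 and 0.62 ± 0.07, where quantile normalization gave -0.09 and 0.16, and Cyc1, the cytochrome of complex III, fell by 0.40 ± 0.10 and 0.31 ± 0.10.

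Of 13 citric acid cycle genes 2 were higher and 10 lower in CD24+ cells, and 1 and 11 in CD172a+ cells, with medians of -0.75 and -0.79. Mdh2 fell by 0.96 ± 0.09 and 2.48 ± 0.09, Idh2 by 1.47 ± 0.09 and 2.22 ± 0.09 and Fh1, the fumarase, by 1.48 ± 0.09 and 2.04 ± 0.09. Of 16 glycolysis genes 13 were higher and 2 lower in CD24+ cells. In CD172a+ cells 8 were higher and 5 lower, where 49.4% of all genes were higher and 29.5% lower. Pfkfb3, which makes the activator of phosphofructokinase, rose by 2.34 ± 0.10 and 3.32 ± 0.10. Of 4 genes linked to the control of respiration (Nos2, Acod1, Pdk1 and Higd1a) 1 was higher and 1 lower in CD24+ cells, and 2 each way in CD172a+ cells. Pdk1 was lower in both, with changes of -0.58 ± 0.15 and -0.82 ± 0.15. Acod1, whose product itaconate inhibits complex II, rose by 1.44 ± 0.16 and 2.20 ± 0.16. Nos2, whose product nitric oxide inhibits complex IV, changed by 0.22 ± 0.11 in CD24+ cells (adjusted p = 0.082) and rose by 1.03 ± 0.11 in CD172a+ cells.

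Of 14 regulators of mitochondrial biogenesis 5 were higher and 7 lower in CD24+ cells, and 4 and 7 in CD172a+ cells. Ppargc1a, a coactivator of oxidative genes, read -1.67, -1.48, -1.53 and -1.81 in culture CD172a+ arrays against 0.21, 0.51, 0.16 and 0.22 in spleen CD172a+ arrays, and -1.87 to -1.71 in culture CD24+ arrays against -1.63 to -1.45 in spleen CD24+ arrays. The spleen CD172a+ arrays thus stood apart from all others, and it fell by 1.90 ± 0.09 in CD172a+ cells and by 0.25 ± 0.09 in CD24+ cells. Gabpa rose by 0.72 ± 0.10 and 0.52 ± 0.10, Nrf1 changed by 0.03 ± 0.06 and -0.41 ± 0.06, Ppargc1b by 0.18 ± 0.05 and 0.08 ± 0.05 and Tfam, which packs and transcribes mitochondrial DNA, by -0.08 ± 0.10 and 0.17 ± 0.10. Tfb1m, which methylates mitochondrial ribosomal RNA, fell by 1.56 ± 0.12 and 1.25 ± 0.12, and Myc by 1.25 ± 0.24 and 3.06 ± 0.24. Of 77 mitochondrial ribosome genes 7 were higher and 47 lower in CD24+ cells, and 24 and 31 in CD172a+ cells.

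CD24+ cells differed from CD172a+ cells of the same source mostly in one direction. In culture 34 members were higher in CD24+ cells and 3 lower, where 11.6% of all genes were called higher and 12.3% lower. In spleen 20 were higher and 1 lower, where 13.8% and 14.3% of all genes were called. The median difference was 0.20 in culture and 0.14 in spleen, beside -0.01 and 0.01 for all genes, and 84.0% and 86.4% of members lay above 0, beside 45.1% and 53.8% of all genes. The 12 members called higher in both sources were 35.3% of the culture calls and 60.0% of the spleen calls, and came from all 5 complexes, where 3.88% of all genes were called higher in both. Of these the spleen calls of Ndufa6 and Ndufc1 held in 2 and 3 of the 16 fits that left out 1 array, and the culture calls of Atp5c1 and Uqcrb were lost with quantile normalization (adjusted p = 0.171 and 0.0771). By complex 16 of 35 complex I members were higher in culture and 7 in spleen, 9 and 6 of 17 in ATP synthase, 3 and 4 of 8 in complex III, 1 and 2 of 4 in complex II and 5 and 1 of 17 in complex IV. The mean of the cDC1 markers moved with the subset, at 3.59 to 3.99 in CD24+ against 1.72 to 2.01 in CD172a+ culture arrays and 4.65 to 4.91 against 1.23 to 1.39 in spleen, and its part in the result was not tested.

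**Figure D4:**
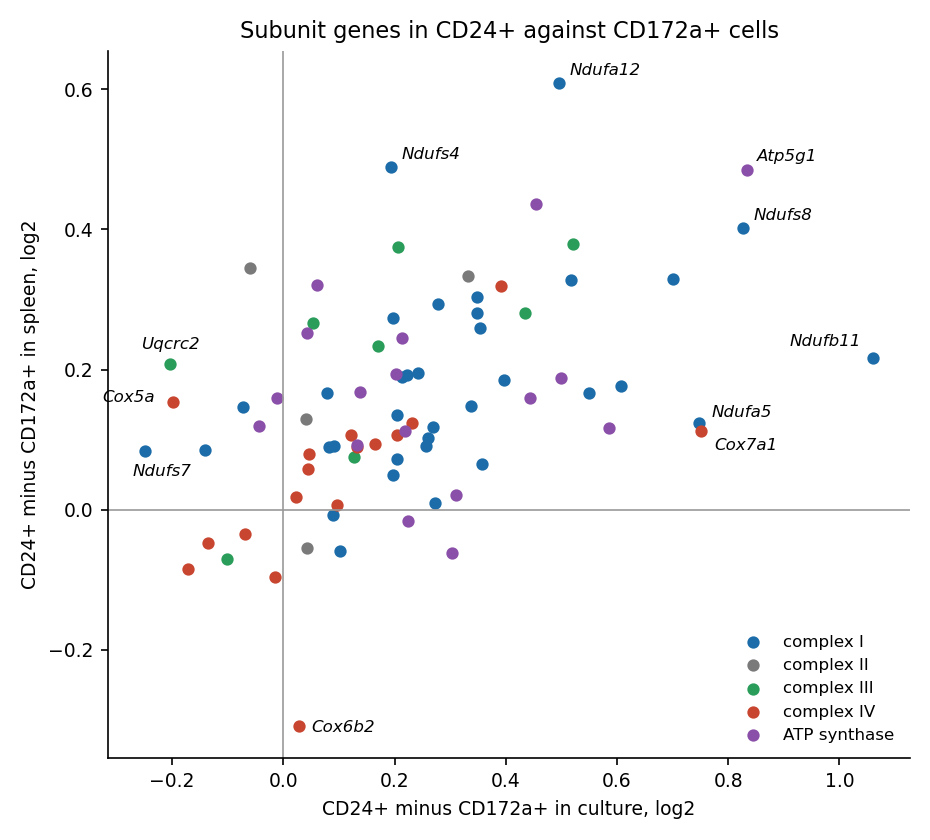
Difference between CD24+ and CD172a+ cells, log2 after median centring, in culture (horizontal axis) and in spleen (vertical axis) for each of the 81 genes, coloured by complex. In culture 68 genes and in spleen 70 lie above 0, and Ndufb11 (1.06 in culture) and Ndufa12 (0.61 in spleen) lie farthest out.

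Ndufa12, an accessory subunit of the N module, had the greatest difference in spleen. It read 3.69, 3.48, 3.65 and 3.67 in culture CD24+ arrays against 3.04, 3.25, 3.07 and 3.16 in culture CD172a+ arrays, and 3.77, 3.74, 3.86 and 3.75 in spleen CD24+ arrays against 3.15, 3.23, 3.17 and 3.14 in spleen CD172a+ arrays. The subsets did not overlap in either source. It was higher by 0.50 ± 0.06 in culture and 0.61 ± 0.06 in spleen (adjusted p = 1.2e-04 and 1.2e-05), and both calls held whichever of the 16 arrays was left out. The c-ring genes Atp5g1 and Atp5g3 were higher by 0.83 ± 0.12 and 0.46 ± 0.08 in culture and by 0.49 ± 0.12 and 0.44 ± 0.08 in spleen. Ndufs8 was higher by 0.83 ± 0.12 in culture and by 0.40 ± 0.12 in spleen, where the call was lost on leaving out any 1 of 5 spleen arrays (adjusted p up to 0.0923). In spleen Ndufs4, an N module subunit, was higher by 0.49 ± 0.11 and Uqcrb, a ubiquinone-binding subunit of complex III, by 0.38 ± 0.06.

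In culture Ndufb11 was higher in CD24+ cells by 1.06 ± 0.11, Cox7a1 by 0.75 ± 0.16, Ndufa5 by 0.75 ± 0.12 and Ndufb2, of the membrane arm, by 0.70 ± 0.12. The second probe sets of Ndufb11 and Atp5g1 gave 0.61 and 0.74. The 3 members lower in culture CD24+ cells were Ndufs7 (-0.25 ± 0.07), Uqcrc2 (-0.20 ± 0.06) and Cox5a (-0.20 ± 0.06), calls that held in 13, 11 and 10 of the 16 fits that left out 1 array, and the 1 lower in spleen CD24+ cells was Cox6b2 (-0.31 ± 0.08, held in 14). Culture CD24+ KO replicate 1 had the highest and KO replicate 2 the lowest member median of the culture CD24+ arrays, 4.21 and 3.93, beside 4.00 and 4.04 in the WT arrays. Without KO replicate 2, 52 members were higher in culture CD24+ cells, and without culture CD24+ WT replicate 2 there were 22. In spleen the count was 33 without culture CD24+ KO replicate 1 or 2 and 8 to 13 without any 1 of 6 spleen arrays: without CD24+ WT replicate 1 there were 8, without CD172a+ KO replicate 1 or WT replicate 1 there were 9, without CD24+ KO replicate 2 there were 10, and without CD24+ KO replicate 1 or CD172a+ WT replicate 2 there were 13. Fitted on the arrays of its own source alone, the count was 22 in culture and 31 in spleen. Quantile normalization gave 27 higher and 6 lower in culture, and 32 and 1 in spleen. For these other fits the shares of all genes in each direction were not counted. The main fit did not use the pairing of the subsets by mouse. With the mouse as a block in limma the culture calls of Cox7a2 and Ndufc2 were lost (adjusted p = 0.0643 and 0.0563). So were the spleen calls of Ndufa6 and Uqcrq (adjusted p = 0.0639 and 0.0528).

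Genes around the chain did not all share this difference. Beside the counts below, 11.6% of all genes were higher and 12.3% lower in culture CD24+ cells, and 13.8% and 14.3% in spleen CD24+ cells. The subset difference was greater in culture for 13.4% of all genes and smaller for 12.8%. Of 77 mitochondrial ribosome genes 12 were higher and 22 lower in culture CD24+ cells, but 41 higher and 0 lower in spleen CD24+ cells, and for 33 the subset difference was smaller in culture than in spleen by the interaction test, with 2 greater. Of 13 citric acid cycle genes 6 were higher and 1 lower in culture CD24+ cells and 2 each way in spleen. Of 16 glycolysis genes 13 were higher and 0 lower in culture CD24+ cells, and 8 and 3 in spleen.

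Whether the subset difference differed between culture and spleen was tested as an interaction. It was greater in culture for 5 members and smaller for 5, where 13.4% and 12.8% of all genes were called, so the members' counts lay below the background. Ndufb11 differed by 1.06 in culture and 0.22 in spleen, an interaction of 0.85 ± 0.16 (adjusted p = 0.0016), and its second probe set by 0.61 and 0.16, a value of 0.45. Ndufa5 read 3.73, 3.06, 3.52 and 3.68 in CD24+ against 2.61, 2.66, 2.85 and 2.88 in CD172a+ culture arrays, and 3.54, 3.58, 3.73 and 3.49 in CD24+ against 3.33, 3.56, 3.49 and 3.47 in CD172a+ spleen arrays. Its subsets were apart in culture and overlapped in spleen, and its interaction was 0.62 ± 0.17 (adjusted p = 0.016). Uqcrc2 and Cox5a had the opposite sign, with interactions of -0.41 ± 0.08 and -0.35 ± 0.08: CD24+ cells were lower in culture, while in spleen Uqcrc2 was higher by 0.21 ± 0.06 and Cox5a stood at 0.15 ± 0.06.

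The interaction calls of Ndufb11, Ndufa5, Atp5pb, Uqcrc2 and Cox5a held whichever of the 16 arrays was left out. With quantile normalization those of Atp5pb (0.34, adjusted p = 0.0631) and Ndufa4 (0.25, adjusted p = 0.103) were lost. With the mouse as a block 6 members were greater and 3 smaller in culture, and the adjusted p of Atp5b, Ndufs7 and Cox6b2 was 0.0673, 0.0541 and 0.0786. Without culture CD24+ KO replicate 2 there were 21 greater, and without culture CD24+ KO replicate 1 there were 11 smaller. Leaving out 1 array gave counts of 3 to 21 greater and 2 to 11 smaller.

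For the loss of Ciita no member passed the threshold in limma in any of the 4 cell classes. Of all genes 0.0903% were called in culture CD24+ cells, 0.0552% in culture CD172a+ cells, 0.0602% in spleen CD24+ cells and 0.0802% in spleen CD172a+ cells. At an unadjusted p under 0.05 there were 2, 1, 0 and 0 of the 81 members, beside 7.58%, 6.25%, 4.61% and 5.46% of all genes. The median difference between KO and WT was -0.015 in culture CD24+, -0.048 in culture CD172a+, -0.017 in spleen CD24+ and -0.055 in spleen CD172a+ cells. For all genes it was 0.016, 0.002, 0.005 and -0.003. In the same order 44.4%, 28.4%, 34.6% and 22.2% of members lay above 0, beside 56.1%, 50.9%, 52.2% and 49.0% of all genes. Members can shift together with a single array, and this lean below 0 was not tested. In all 4 classes the members' differences lay between -0.31 and 0.31.

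The members with the smallest p were of several complexes. Ndufv2 read 4.21 and 4.37 in KO against 4.11 and 4.00 in WT culture CD24+ arrays (0.23 ± 0.08, adjusted p = 0.54), and Sdhd differed there by 0.31 ± 0.14 and Uqcrc2 by 0.14 ± 0.08. Sdha read 4.31 and 4.15 in KO against 3.83 and 4.16 in WT culture CD172a+ arrays (0.24 ± 0.11, adjusted p = 0.79), where Cox4i1 differed by -0.16 ± 0.08 and Atp5l, an ATP synthase membrane subunit, by -0.18 ± 0.10. The KO and WT arrays were apart for Ndufv2 and overlapped for Sdha. In spleen CD24+ cells the smallest p were those of Atp5md (-0.19 ± 0.10), Sdha (0.20 ± 0.11) and Cox8b (-0.18 ± 0.10), and in spleen CD172a+ cells those of Ndufa4l2 (0.17 ± 0.09), Atp5e (-0.31 ± 0.17) and Cox6a2 (0.13 ± 0.07). In simulated data 64% of genes given a difference of 0.5 between KO and WT culture CD24+ cells were recovered, and 92% of those given 1. The simulated noise was independent between genes and arrays. Recovery in arrays with shifts shared by many genes was therefore not measured. Without culture CD24+ KO replicate 1 there were 6 members lower in KO (median -0.167), and without KO replicate 2 there were 0 (median 0.137). The member medians of these KO arrays, 4.21 and 3.93, lay on either side of the WT arrays at 4.04 and 4.00.

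**Figure D5:**
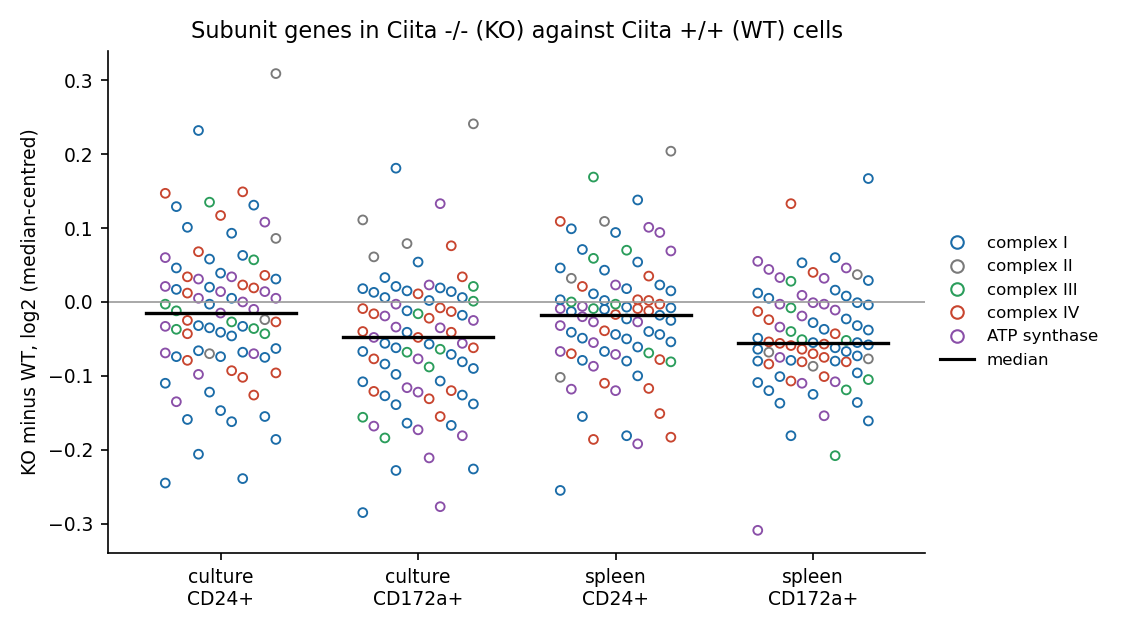
Difference between KO and WT, log2 after median centring (vertical axis), for each of the 81 genes in the 4 cell classes (horizontal axis), coloured by complex, with bars at the medians. All values lie between -0.31 and 0.31, and none was called.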

How the data were processed

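The authors deposited log2 signals, 1 per probe set and array, for 16 Affymetrix Mouse Gene 1.0 ST arrays; the range of the values gave the log2 unit, and how background and normalization were handled is not stated in the labels or headers. Ovation Pico WTA amplified the DNase-treated total RNA, per the labels' protocols. Of 30177 probe sets, 21789 had 1 gene symbol, 1621 several and 6767 none; those with 1 symbol gave 19938 genes by the highest-mean probe set. Of the 81 members 16 had several probe sets, and 13 of these agreed in sign over all sets in each subset. RefSeq lists 18 pseudogenes with such names, whose transcripts the probes may also bind.

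Each array was centred on the median of its tested genes. All 16 arrays were fitted with 8 group means in limma 3.58.1 (R 4.3.3), with Benjamini-Hochberg adjustment over all genes and a threshold of 0.05; values after ± are standard errors unless stated. The arrays have no read depth, and their number limits the precision. Animals differ between sources and genotypes, so only the subsets are paired, by mouse per the labels; the deviations of paired arrays correlated at 0.393, 0.205, 0.202 and -0.0957 in the 4 source and genotype groups. Members and gene lists were chosen with earlier results of these data known. Named genes were the 10 largest called changes each way in culture against spleen, complex II, the isoform families, up to 6 by size in the subset comparisons, the 3 smallest p per genotype comparison, and up to 3 per other list with AA467197, Acod1, Nos2, Ppargc1a, Ppargc1b, Tfam, Nrf1, Gabpa and Atpif1; Ndufs1, Ndufv1, Ndufa9, Uqcrc1 and Atp5c1 were added with their values seen. The fit was tested on simulated data.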

Additional observations from a re-analysis of the deposited data

Results flagged for a closer look

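For 10 members the test of the difference itself found that CD24+ minus CD172a+ was not the same in culture as in spleen (limma, log2, culture minus spleen). It was greater in culture for Ndufb11 (0.85), Ndufa5 (0.62), Atp5pb (0.47), Ndufa4 (0.38) and Cox6b2 (0.34). It was smaller for Uqcrc2 (-0.41), Sdhd (-0.40), Cox5a (-0.35), Ndufs7 (-0.33) and Atp5b (-0.21). Atp5pb, the b subunit of the ATP synthase stalk, differed between the subsets by 0.58 in culture and 0.12 in spleen, and Ndufa4 by 0.55 and 0.17. Sdhd differed by -0.06 in culture and 0.34 in spleen, and Atp5b by 0.04 and 0.25. Cox6b2 differed by 0.03 and -0.31, so its spleen difference was the larger. The calls of Sdhd and Cox6b2 each held in only 4 of the 16 fits that left out 1 array, that of Atp5b in 7, of Ndufa4 in 8 and of Ndufs7 in 10.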

How the results depend on the processing

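Higher calls between culture and spleen changed with the scaling more than lower ones. The values as deposited put every gene's change lower than centring did, by the same amount for all genes of a comparison. No lower call could therefore turn sign in them. Of 44 called members in CD24+ cells the sign turned for 16 as deposited and 13 with quantile normalization, of 49 in CD172a+ cells for 13 and 10, and for 0 of the lower calls in either. In the values as deposited the median change was -0.445 in CD24+ and -0.468 in CD172a+ cells, with 3 members higher and 70 lower, and 5 higher and 68 lower. With quantile normalization it was -0.419 and -0.361, with 6 and 63, and 9 and 56. The shares of all genes called in each direction were counted for the main fit only. The lists that follow cover the 40 members named by the rule. A turn is counted in them only where the gene was called before or after it. The sign turned with quantile normalization in CD24+ cells for Atp5a1 -0.12, Atp5b -0.12, Atp5g3 -0.18, Atp5pb -0.16, Cox4i1 -0.26, Cox5b -0.046, Cox6a1 -0.24, Cox6b1 -0.22, Cox7a2 -0.16, Cox7b -0.47, Cox8a -0.49, Ndufa4 -0.49, Ndufv2 -0.34 and Uqcrh -0.16, and in CD172a+ cells for Atp5g3 -0.032, Cox4i1 -0.26, Cox6a1 -0.30, Cox6b1 -0.10, Cox7a2 -0.16, Ndufv2 -0.041 and Uqcrh -0.025. As deposited it turned in CD24+ cells for Atp5a1 -0.072, Atp5b -0.080, Atp5g3 -0.22, Atp5pb -0.13, Cox4i1 -0.21, Cox5b -0.006, Cox6a1 -0.30, Cox6a2 -0.28, Cox6b1 -0.17, Cox7a2 -0.088, Cox7b -0.41, Cox7b2 -0.22, Cox8a -0.45, Cox8b -0.29, Ndufa4 -0.45, Ndufa4l2 -0.32, Ndufv2 -0.37, Sdhd -0.38 and Uqcrh -0.16, and in CD172a+ cells for Atp5g3 -0.20, Cox4i1 -0.27, Cox6a1 -0.37, Cox6a2 -0.16, Cox6b1 -0.12, Cox7a2 -0.12, Cox7b2 -0.19, Cox8b -0.34, Ndufa4l2 -0.29, Ndufv2 -0.11 and Uqcrh -0.092. The cause of the different array medians was not tested, and the sources used here do not say whether culture and spleen arrays were normalized together. Atp5g1, a named member that is not in these lists, stood at -0.25 as deposited and -0.07 with quantile normalization in CD24+ cells. Quantile normalization also gave 6 members lower in culture CD24+ cells, 32 higher in spleen CD24+ cells and 12 with a smaller subset difference in culture. The arrays of 1 source alone gave 22 higher and 1 lower in culture and 31 higher in spleen. The mouse as a replicate block, valid for the subset pairs, gave 3 members with a smaller difference in culture and changed no named call between culture and spleen. Leaving out 1 array gave 16 to 31 members higher in culture CD24+ cells (31 without culture CD24+ KO replicate 2), 22 to 52 higher and 0 to 4 lower in CD24+ against CD172a+ culture cells, 8 to 33 and 0 to 1 in spleen, and 3 to 21 greater and 2 to 11 smaller subset differences. For KO against WT it gave 0 to 6 lower in culture CD24+ cells (median -0.167 to 0.137), and medians of -0.103 to 0.064 in spleen CD24+ cells. Averaging probe sets, adding probe sets with several symbols, leaving out the lowest quartile and a trended robust fit were also tried. Between culture and spleen they turned no sign of a named member that was called before or after the change.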
